A study of Rattus norvegicus with 12 samples.

Results

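The histone genes of cultured neonatal rat cardiac myocytes are described here, divided into replication-dependent (canonical) genes and genes of variant histones. They were chosen by name: every probe set with 1 gene symbol whose platform or current symbol begins with a histone stem (Hist1h to Hist4h, H1f, H2af, H2ac, H2bc, H2az, H3f, H3c, H4c or Macroh2a) was taken, and the brightest probe set over the 12 arrays stood for its gene. This gave 29 of the 14507 genes measured, 17 canonical and 12 variant. The rule itself used no measured change, but the members and classes were chosen with earlier results of these data known. Total RNA of 4 groups was measured on 3 arrays each: p300 siRNA cells after 8 h in 1 µM doxorubicin (Dox), NS cells (non-silencing siRNA) after 8 h in Dox, p300 siRNA cells at 0 h and NS cells at 0 h. All cells were primary myocytes of newborn Sprague Dawley rats that had been grown with bromodeoxyuridine, a thymidine analogue given against dividing fibroblasts. They had been without serum for 48 h before the drug, and over 90% were myocytes by the labels. The replicate numbers stand for 3 experiments, each with all 4 groups. Only the 0 h cells were untreated, so drug and time cannot be told apart.

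Canonical histones pack newly copied DNA, and their genes lie in clusters, lack introns and are transcribed mainly in S phase. Their mRNAs end in a stem-loop instead of a poly(A) tail, bound by the stem-loop binding protein and cut with the U7 small nuclear RNP, and they are degraded quickly when DNA synthesis stops. A subset is known from mouse and human to yield polyadenylated mRNA as well in differentiated tissues. Variant histones such as H2A.Z, macroH2A and the replacement form of H3 come from genes that stand apart, are transcribed throughout the cell cycle and give polyadenylated mRNA, and they replace canonical histones in cells that no longer divide. The variant class here also holds genes known for the testis or the germ line, which that description does not cover. Cardiac myocytes leave the cell cycle around birth. Doxorubicin is an anthracycline that poisons DNA topoisomerase II and can evict histones from chromatin, and p300 (gene Ep300) is an acetyltransferase whose substrates include histones. The RNA was labelled with a whole-transcript kit that primes along the RNA and needs no poly(A) tail. In RNA of whole cultures, fewer cells in S phase and less histone RNA per cell cannot be told apart.

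RefSeq promoters (assembly GRCr8, 250 bases before to 50 after the gene start) were matched for 28 of the 29 genes, with none for H4c14. The promoters of 5 genes are shown over the 170 bases before the start because their genes moved in opposite directions with Dox: H1f4, H2bc18 and H2ac4 fell, and H2ac25 and Hist1h4b rose. Capitals mark the letters CCAAT (read by the factor NF-Y), ATTTGCAT (the octamer, read by OCT1) and TATAAA (the TATA box), each in either direction, and the 3 motifs do not overlap here. The stretch of H1f4 is chr17:41914255-41914424 on the + strand, that of H2bc18 chr2:186527027-186527196 on the + strand and that of H2ac4 chr17:47496128-47496297 on the - strand. For H2ac25 it is chr10:44233113-44233282 on the + strand and for Hist1h4b chr17:47176076-47176245 on the + strand.
H1f4: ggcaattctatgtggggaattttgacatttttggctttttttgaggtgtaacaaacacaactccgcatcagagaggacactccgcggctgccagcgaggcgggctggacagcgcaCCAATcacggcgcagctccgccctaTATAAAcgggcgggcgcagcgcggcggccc
H2bc18: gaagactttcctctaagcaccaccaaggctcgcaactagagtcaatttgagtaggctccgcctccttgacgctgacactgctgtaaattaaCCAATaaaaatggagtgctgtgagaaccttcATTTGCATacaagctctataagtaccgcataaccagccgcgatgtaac
H2ac4: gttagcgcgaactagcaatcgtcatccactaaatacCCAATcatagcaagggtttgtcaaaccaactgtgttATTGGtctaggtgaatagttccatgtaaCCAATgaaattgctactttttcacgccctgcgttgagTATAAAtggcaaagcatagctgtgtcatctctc
H2ac25: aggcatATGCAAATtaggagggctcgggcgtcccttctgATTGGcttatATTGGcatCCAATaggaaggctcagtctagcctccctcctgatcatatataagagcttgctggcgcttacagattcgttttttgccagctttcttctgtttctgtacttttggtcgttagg
Hist1h4b: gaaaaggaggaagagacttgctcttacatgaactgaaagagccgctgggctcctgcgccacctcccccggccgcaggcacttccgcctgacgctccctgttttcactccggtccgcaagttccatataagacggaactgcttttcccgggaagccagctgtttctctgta
CCAAT stood in 15 of the 16 canonical promoters, against 37.5% of all 33469 RefSeq promoters of the same 300 bases. The exception was Hist1h4b, whose window held none of these 3 motifs. The octamer was in 6 of 16 canonical promoters, against 1.78% of all promoters, and TATAAA in 9 of 16, against 14.2%. The GC box (GGGCGG, either direction) was in 7 of 16, close to the 33.1% of all promoters. Variant promoters held CCAAT in 9 of 12, the octamer in 3 of 12 and TATAAA in 5 of 12. Of these 3 variant promoters with an octamer, H2ac1 and H2bc1 lie head to head and share much of 1 window. CCAAT was present in all 10 canonical promoters whose genes fell with Dox and were matched, and also in H2ac25, which rose, and in all 4 canonical genes that were not called. A match of letters does not show a bound site.

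The targeted gene was lower wherever the p300 siRNA was used. Ep300 lay at 10.10, 9.64 and 9.80 log2 intensity in p300 siRNA cells at 8 h, against 10.86, 10.72 and 10.72 in NS cells at 8 h. At 0 h it lay at 10.41, 10.02 and 10.05 in p300 siRNA cells, against 11.16, 11.01 and 11.14 in NS cells. The groups did not overlap, and the averaged difference was -0.93 (SE 0.0894, limma adjusted p = 0.00212), a call that was lost without experiment 2 or without experiment 3. Here and below a gene is called at a limma adjusted p under 0.05, adjusted over all 14507 genes. The 10 cardiac myocyte markers summed to 98480 to 110500 intensity units in p300 siRNA cells at 8 h, 103400 to 112800 in NS cells at 8 h, 96610 to 110000 in p300 siRNA cells at 0 h and 103200 to 107000 in NS cells at 0 h, and 0 of 10 were called in any comparison. With the experiment added to the fit as a block, Tnni3 (0.19, adjusted p = 0.0218) and Myl7 (0.135, adjusted p = 0.0248) rose with Dox in p300 siRNA cells. That fit called 45.8% of all genes there. Arrays have no true zero, so no marker of another cell type could be said to be absent.

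Most canonical histone genes fell after 8 h of Dox, and they fell with either siRNA. In p300 siRNA cells 11 of 17 fell and 2 rose, with a median log2 change of -0.59 for the class and 0.04 for all genes. In NS cells 11 of 17 fell and 2 rose, with a median of -0.61 for the class and 0.04 for all genes. The 11 that fell and the 2 that rose were the same genes in both. Over canonical and variant genes together, 19 of 29 were called in p300 siRNA cells and 17 of 29 in NS cells, while 31.4% of all genes in p300 siRNA cells and 27.5% in NS cells were called. For falls alone the background was 17.5% in p300 siRNA cells and 16.4% in NS cells, and for rises 13.9% in p300 siRNA cells and 11.2% in NS cells. When the experiment was added as a block, 23 of 29 histone genes were called in each cell group, where 45.8% of all genes in p300 siRNA cells and 43.6% in NS cells were called. Leaving out experiment 3 gave 12 of 29 in p300 siRNA cells. The 8 h and 0 h arrays did not overlap for 14 of 17 canonical genes in p300 siRNA cells and for 13 of 17 in NS cells, against 43.2% of all genes in p300 siRNA cells and 41.3% in NS cells. Averaged over the 17 canonical genes, each centred on its mean over the 12 arrays, the level stood at 0.00, -0.32 and -0.26 in p300 siRNA cells at 8 h, against 0.45, 0.16 and 0.42 in the same cells at 0 h. In NS cells it stood at -0.13, -0.49 and -0.37 at 8 h, against 0.34, 0.07 and 0.13 at 0 h. All 8 h arrays were below all 0 h arrays.

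Some markers of other cells were called with Dox too, where 31.4% of all genes were called in p300 siRNA cells and 27.5% in NS cells. In both cell groups 2 of 7 endothelial markers fell, with a summed intensity of 1190 to 1242 at 8 h against 1476 to 1492 at 0 h in p300 siRNA cells, and of 1257 to 1413 at 8 h against 1596 to 1675 at 0 h in NS cells. Of 7 smooth muscle and pericyte markers 2 fell in both cell groups, while the sums at 8 h and 0 h overlapped. Rgs5 (0.65 in p300 siRNA cells and 0.43 in NS cells) and Myh11 (0.29 and 0.28) were not called but rose under the experiment block. Their block adjusted p was 4.44e-06 and 0.0159 in p300 siRNA cells, and 2.24e-04 and 0.0215 in NS cells. That block called 45.8% of all genes in p300 siRNA cells, and 43.6% in NS cells. Fibroblast markers gave 2 rises and 1 fall of 12 in p300 siRNA cells, and 1 rise and 1 fall in NS cells. Among 10 macrophage and leukocyte markers Csf1r fell in both cell groups (-0.66 in p300 siRNA cells and -0.54 in NS cells), and in p300 siRNA cells Ptprc fell (-0.37) and C1qa rose (0.25). Of 3 erythroid markers Slc4a1 rose in both (0.74 in p300 siRNA cells and 0.68 in NS cells). The part of these cells in the histone changes was not tested.

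**Figure D1:**
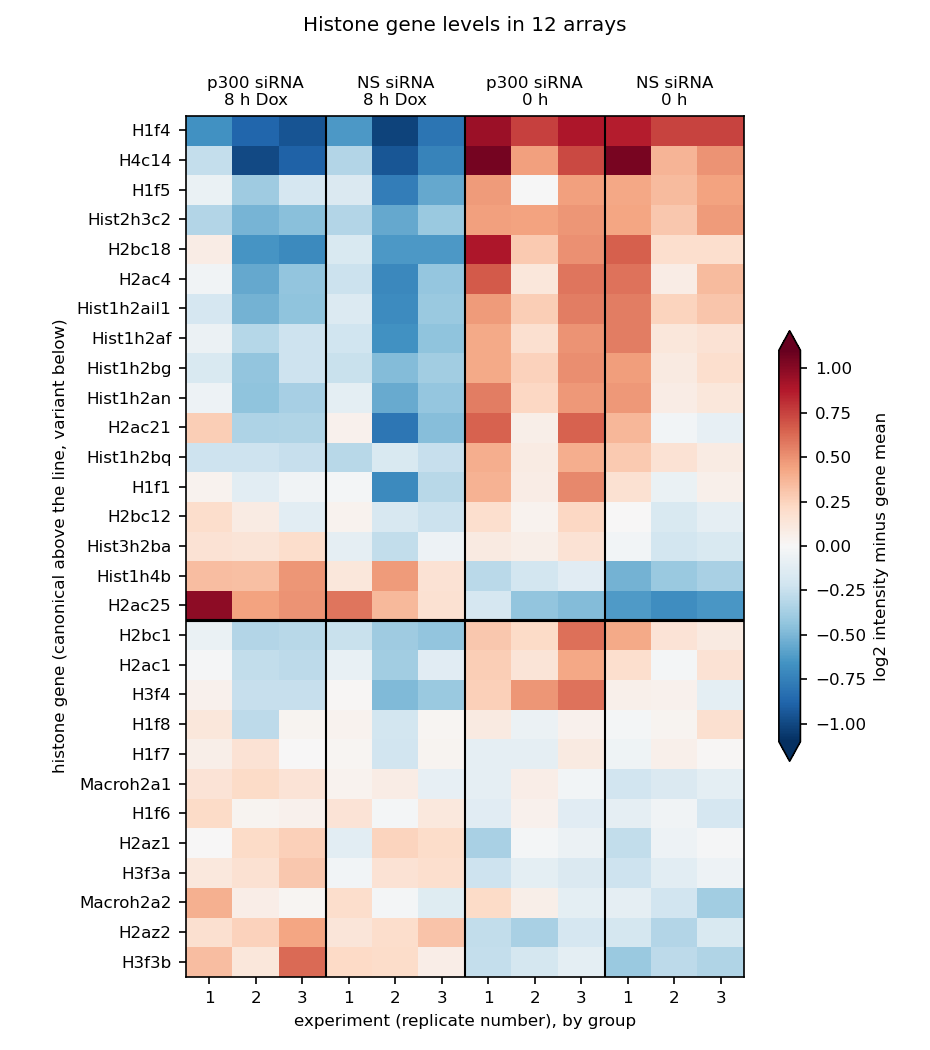
Log2 intensity of each of the 29 histone genes (rows) in the 12 arrays (columns, in 4 groups of 3 numbered by experiment), minus the gene's mean over the arrays. Most canonical genes are blue in the 8 h arrays and red in the 0 h arrays, Hist1h4b and H2ac25 show the opposite, and H2az2, H3f3a and H3f3b are higher at 8 h.

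**Figure D2:**
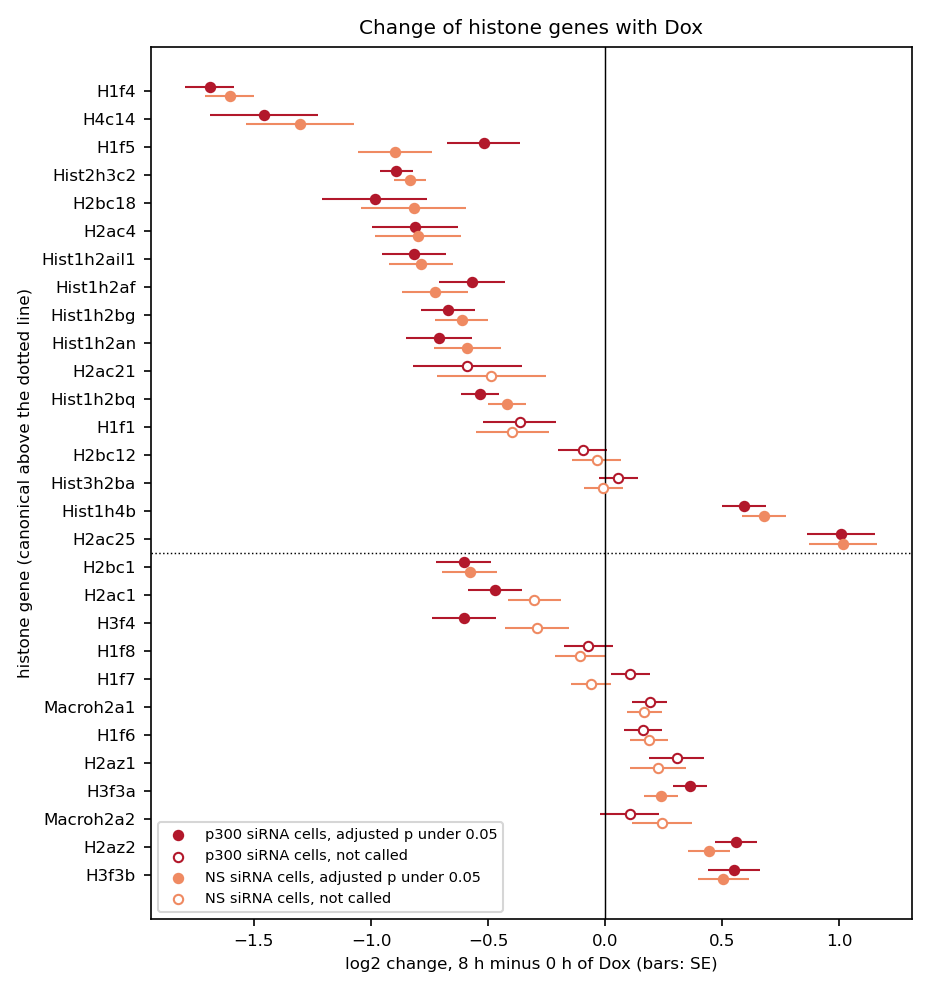
Log2 change with 8 h of Dox (horizontal axis, SE bars, n = 3 arrays a group) for each histone gene in p300 siRNA cells and in NS cells. Filled points were called, open points were not. H1f4 lies farthest to the left at -1.69 in p300 siRNA cells and -1.60 in NS cells, and H2ac25 farthest to the right at 1.01 in p300 siRNA cells and 1.02 in NS cells.

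Linker histones bind where DNA enters and leaves the nucleosome, and H1f4 had the largest change of the 29 genes. H1f4 stood at 10.71, 10.50 and 10.42 log2 intensity in p300 siRNA cells at 8 h, against 12.31, 12.13 and 12.26 at 0 h. The NS cells had 10.74, 10.35 and 10.57 at 8 h, against 12.24, 12.12 and 12.12 at 0 h. The 8 h arrays were all more than 1 log2 unit below the 0 h arrays. H1f4 fell by 1.69 in p300 siRNA cells (SE 0.105, adjusted p = 4.41e-07) and by 1.60 in NS cells (SE 0.105, adjusted p = 9.13e-07), and the call held under all 24 alternatives in both. H1f5, another linker histone of dividing cells, stood at 9.01, 8.69 and 8.89 in p300 siRNA cells at 8 h, against 9.54, 9.08 and 9.53 at 0 h. In NS cells H1f5 stood at 8.92, 8.32 and 8.52 at 8 h, against 9.50, 9.42 and 9.52 at 0 h. H1f5 fell by 0.52 in p300 siRNA cells (SE 0.157, adjusted p = 0.0233) and by 0.90 in NS cells (SE 0.157, adjusted p = 0.00105). The call in p300 siRNA cells was lost under 7 alternatives, among them median centring, quantile normalisation and leaving out experiment 3, and the difference between these responses was not called (0.38, SE 0.222, adjusted p = 1.00). H1f1 was not called (-0.37 in p300 siRNA cells and -0.40 in NS cells) but passed under the experiment block (adjusted p = 0.00445 in p300 siRNA cells and 0.00285 in NS cells).

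Histone H2A pairs with H2B in a dimer at the outer face of the nucleosome. Of 6 canonical H2A genes 4 fell with Dox under either siRNA, by 0.57 (Hist1h2af) to 0.82 (Hist1h2ail1) in p300 siRNA cells and by 0.59 (Hist1h2an) to 0.80 (H2ac4) in NS cells. H2ac4 stood at 8.72, 8.20 and 8.32 in p300 siRNA cells at 8 h, against 9.43, 8.89 and 9.35 at 0 h, a change of -0.81 (SE 0.184, adjusted p = 0.00485). In NS cells H2ac4 stood at 8.52, 8.05 and 8.33 at 8 h, against 9.36, 8.84 and 9.11 at 0 h, a change of -0.80 (SE 0.184, adjusted p = 0.00618). The groups did not overlap, and within an experiment the differences lay between -1.03 and -0.69. Without experiment 3 the calls of H2ac4 and Hist1h2an were lost in both cell groups and that of Hist1h2af in p300 siRNA cells. Without experiment 2 that of Hist1h2an was lost in NS cells. These calls held under the experiment block, with adjusted p of 6.94e-07 in p300 siRNA cells and 1.01e-06 in NS cells for H2ac4. For Hist1h2an it was 4.79e-08 in p300 siRNA cells and 3.59e-07 in NS cells, and for Hist1h2af 2.07e-05 in p300 siRNA cells. H2ac21 was not called (-0.59 in p300 siRNA cells and -0.49 in NS cells) but passed under the block (adjusted p = 3.55e-04 in p300 siRNA cells and 0.00185 in NS cells).

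Canonical H2B genes gave 3 falls of 5. H2bc18 stood at 10.64, 9.91 and 9.86 in p300 siRNA cells at 8 h, against 11.45, 10.85 and 11.07 at 0 h. Levels in NS cells were 10.39, 9.93 and 9.93 at 8 h, against 11.22, 10.74 and 10.74 at 0 h. In each cell group the 8 h and the 0 h arrays were apart, and experiment 1 was the highest within every group. H2bc18 fell by 0.99 in p300 siRNA cells (SE 0.223, adjusted p = 0.00472) and by 0.82 in NS cells (SE 0.223, adjusted p = 0.0158). Both calls were lost without experiment 2 or 3. That in NS cells was also lost without any of 3 single arrays (experiment 1 at 0 h, experiment 2 or 3 at 8 h). Within an experiment the differences were -0.81, -0.93 and -1.21 in p300 siRNA cells and -0.83, -0.82 and -0.81 in NS cells. Under the experiment block the adjusted p was 1.05e-07 in p300 siRNA cells and 7.58e-07 in NS cells. Hist1h2bg (-0.67 in p300 siRNA cells and -0.61 in NS cells) and Hist1h2bq (-0.53 in p300 siRNA cells and -0.42 in NS cells) fell under all alternatives. H2bc12 (-0.10 in p300 siRNA cells and -0.04 in NS cells) and Hist3h2ba (0.06 in p300 siRNA cells and -0.01 in NS cells) were not called. A further 3 probe sets held several H2B symbols, with H2bc12 and Hist1h2bg among them in each. They were brighter than the H2bc12 probe set used here and lower at 8 h than at 0 h without overlap. Their untested differences of group means were -0.79 to -0.77 in p300 siRNA cells and -0.75 to -0.67 in NS cells. Whether H2bc12 itself fell is thus uncertain. Canonical copies are nearly identical in sequence, so a probe set can read several of them and the split between copies is uncertain.

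H3 and H4 form the tetramer at the core of the nucleosome, and the only canonical H3 gene measured fell. Hist2h3c2 stood at 12.91, 12.72 and 12.77 in p300 siRNA cells at 8 h, against 13.68, 13.68 and 13.72 at 0 h. The arrays of NS cells gave 12.91, 12.67 and 12.82 at 8 h, against 13.66, 13.53 and 13.70 at 0 h. The arrays of each group lay close together and far from the other time. The change was -0.89 in p300 siRNA cells (SE 0.0697, adjusted p = 2.35e-06) and -0.83 in NS cells (SE 0.0697, adjusted p = 4.70e-06). Its other 2 probe sets held identical values, with untested differences of group means of -1.12 in p300 siRNA cells and -0.94 in NS cells.

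All H4 genes encode the same protein, and the 2 that were measured went opposite ways. These 2 share several synonyms in the annotation, and which H4 copies each probe set reads was not tested. H4c14 stood at 11.96, 11.23 and 11.33 in p300 siRNA cells at 8 h, against 13.27, 12.67 and 12.95 at 0 h. The levels of NS cells were 11.90, 11.28 and 11.49 at 8 h, against 13.27, 12.59 and 12.72 at 0 h. Every 8 h array was below every 0 h array. H4c14 fell by 1.46 in p300 siRNA cells (SE 0.230, adjusted p = 4.19e-04) and by 1.30 in NS cells (SE 0.230, adjusted p = 0.00110). Hist1h4b, in the large histone cluster, stood at 12.001, 11.995 and 12.153 in p300 siRNA cells at 8 h, against 11.37, 11.46 and 11.54 at 0 h. In NS cells Hist1h4b stood at 11.79, 12.13 and 11.82 at 8 h, against 11.14, 11.25 and 11.30 at 0 h. Here every 8 h array was above every 0 h array. Hist1h4b rose by 0.59 in p300 siRNA cells (SE 0.0942, adjusted p = 4.50e-04) and by 0.68 in NS cells (SE 0.0942, adjusted p = 1.94e-04). The calls of H4c14, Hist1h4b and Hist2h3c2 held under all 24 alternatives.

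H2ac25 had the largest rise among the 29 genes. It encodes a canonical H2A and neighbours Hist3h2ba and H3f4 in a small cluster of its own. H2ac25 stood at 10.03, 9.49 and 9.53 in p300 siRNA cells at 8 h, against 8.86, 8.61 and 8.57 at 0 h. The NS cells had 9.64, 9.40 and 9.21 at 8 h, against 8.42, 8.36 and 8.41 at 0 h. All 8 h arrays were above all 0 h arrays. H2ac25 rose 2.01-fold in p300 siRNA cells (log2 change 1.01, SE 0.146, adjusted p = 2.30e-04) and 2.02-fold in NS cells (1.02, SE 0.146, adjusted p = 2.57e-04), under all 24 alternatives. Its neighbour Hist3h2ba was not called with Dox, and H3f4 fell in p300 siRNA cells.

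**Figure D3:**
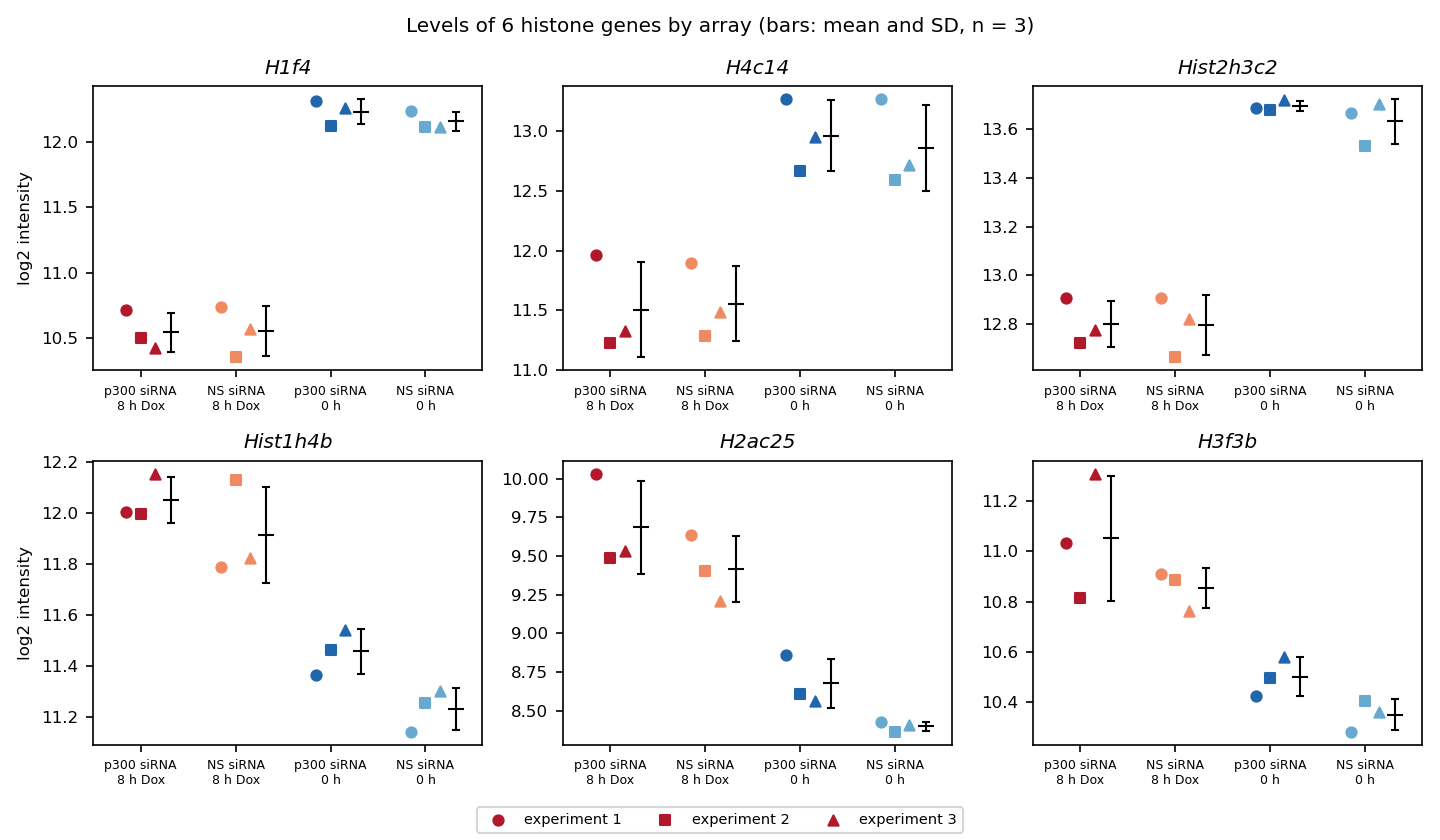
Log2 intensity of 6 histone genes in each array (points, shape by experiment) with the group mean and SD (black, n = 3), for p300 siRNA and NS cells at 8 h of Dox and at 0 h. H1f4, H4c14 and Hist2h3c2 are lower at 8 h and Hist1h4b, H2ac25 and H3f3b are higher, with no overlap between the times; each panel has its own axis, which does not start at 0.

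Of the 6 variant genes of somatic cells 3 rose with Dox in both cell groups, namely H2az2, H3f3a and H3f3b, and 0 fell. Rises made up 13.9% of all genes in p300 siRNA cells and 11.2% in NS cells. All 6 values were above 0 in both cell groups, as were 57.4% of all genes in p300 siRNA cells and 57.2% in NS cells. Their median was 0.33 in p300 siRNA cells and 0.24 in NS cells, and under the experiment block 5 rose in p300 siRNA cells and 6 in NS cells, where 23% of all genes rose in p300 siRNA cells and 21.6% in NS cells. H3f3b, which with H3f3a encodes the replacement form of H3, stood at 11.03, 10.81 and 11.31 in p300 siRNA cells at 8 h, against 10.43, 10.50 and 10.58 at 0 h. In NS cells the arrays gave 10.91, 10.89 and 10.76 at 8 h, against 10.28, 10.40 and 10.36 at 0 h. The times did not overlap. H3f3b rose by 0.55 in p300 siRNA cells (SE 0.109, adjusted p = 0.00206) and by 0.50 in NS cells (SE 0.109, adjusted p = 0.00428). H3f3a stood at 13.10, 13.15 and 13.28 in p300 siRNA cells at 8 h, against 12.75, 12.87 and 12.82 at 0 h, and at 12.96, 13.14 and 13.17 in NS cells at 8 h, against 12.76, 12.87 and 12.93 at 0 h. The gap between the times was narrow for H3f3a in NS cells, where experiment 1 at 8 h lay just above experiment 3 at 0 h. H3f3a rose by 0.36 in p300 siRNA cells (SE 0.0718, adjusted p = 0.00206) and by 0.24 in NS cells (SE 0.0718, adjusted p = 0.0251). The call in NS cells was lost under 7 alternatives, which included quantile normalisation, leaving out experiment 2 or 3, and leaving out any of 4 single NS arrays (experiment 1 or 2 at 0 h, experiment 2 or 3 at 8 h).

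H2A.Z marks promoters and is encoded by H2az1 and H2az2. H2az2 stood at 10.93, 11.01 and 11.19 in p300 siRNA cells at 8 h, against 10.48, 10.40 and 10.57 at 0 h. The NS arrays were at 10.89, 10.94 and 11.07 at 8 h, against 10.56, 10.43 and 10.58 at 0 h. There was no overlap between the times. H2az2 rose by 0.56 in p300 siRNA cells (SE 0.0893, adjusted p = 4.55e-04) and by 0.44 in NS cells (SE 0.0893, adjusted p = 0.00269), and the call in NS cells was lost without experiment 2. H2az1 was not called (0.31 in p300 siRNA cells and 0.23 in NS cells) and passed under the block (adjusted p = 6.24e-05 in p300 siRNA cells and 9.86e-04 in NS cells). MacroH2A carries a large extra domain and is linked with silent chromatin. Macroh2a1 (0.19 in p300 siRNA cells and 0.17 in NS cells) was not called and passed under the block (adjusted p = 0.0172 in p300 siRNA cells and 0.0346 in NS cells). Macroh2a2 (0.10 in p300 siRNA cells and 0.24 in NS cells) passed under the block in NS cells alone (adjusted p = 0.215 in p300 siRNA cells and 0.00742 in NS cells).

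The other 6 variant genes are known for the testis or the germ line, with median changes of -0.27 in p300 siRNA cells and -0.20 in NS cells. Over the 12 arrays H1f8, H1f7, H1f6 and H2bc1 averaged 5.94, 7.10, 7.18 and 7.57 log2 intensity, below the median of all genes (8.57). H2ac1 (8.67) and H3f4 (8.94) lay above it. Whether the probe sets of these 6 genes also read canonical copies was not tested. H2bc1 and H2ac1, testis forms of H2B and H2A in rat, lie head to head. H2bc1 fell by 0.60 in p300 siRNA cells (SE 0.117, adjusted p = 0.00178) and by 0.58 in NS cells (SE 0.117, adjusted p = 0.00279). H2ac1 fell by 0.47 in p300 siRNA cells (SE 0.114, adjusted p = 0.00693), a call lost without experiment 3, and differed by -0.30 in NS cells (adjusted p = 0.0655, and 0.00698 under the block). H3f4, whose human counterpart encodes a testis form of H3, stood at 8.99, 8.69 and 8.69 in p300 siRNA cells at 8 h, against 9.21, 9.43 and 9.54 at 0 h. It fell there by 0.60 (SE 0.136, adjusted p = 0.00474), which was lost without experiment 2 or 3, and differed by -0.29 in NS cells (adjusted p = 0.138). The difference between these responses was not called for H3f4 (-0.31, SE 0.193, adjusted p = 1.00). The linker forms H1f6, H1f7 and H1f8 were not called in either cell group, with values from -0.07 to 0.16 in p300 siRNA cells and from -0.11 to 0.19 in NS cells.

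The p300 siRNA was compared with the NS siRNA at each time. At 8 h 0 of 29 histone genes were called by limma, 1 had an unadjusted p under 0.05, and 1 passed under the experiment block (Hist3h2ba, 0.30, adjusted p = 0.0315). At 0 h 0 of 29 were called by limma, 5 had an unadjusted p under 0.05, and 1 passed under the block (Macroh2a2, 0.29, adjusted p = 0.0298). Of all genes 0.0483% were called at 8 h and 0.0207% at 0 h, and under the block 3.15% at 8 h and 2.69% at 0 h. The p300 siRNA arrays did not overlap the NS arrays for 2 of 29 genes at 8 h and for 7 of 29 at 0 h, all higher, where 11.1% of all genes at 8 h and 13% at 0 h did not overlap. Averaged over both times 1 of 29 was called, a rise, against 1.25% of all genes in either direction and 0.227% as rises.

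That gene was Hist3h2ba, a canonical H2B gene beside H2ac25. It stood at 9.50, 9.49 and 9.53 in p300 siRNA cells at 8 h, against 9.25, 9.07 and 9.29 in NS cells at 8 h. At 0 h it stood at 9.45, 9.41 and 9.50 in p300 siRNA cells, against 9.32, 9.14 and 9.18 in NS cells. The p300 siRNA arrays were above the NS arrays at each time. The averaged difference was 0.27 (SE 0.0587, adjusted p = 0.0424). This call was lost under 17 of 23 alternatives, namely median centring, quantile normalisation and each one that left out an array or an experiment, and the adjusted p was 0.00303 under the experiment block.

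Small positive differences were common among the other histone genes. All 17 canonical genes had a positive averaged difference, from 0.03 (H4c14) to 0.32 (H2ac21), and 11 of 12 variant genes did, where 52.6% of all genes did. The median was 0.14 for canonical and 0.07 for variant genes, and 0.01 for all genes. Without experiment 1 of the p300 siRNA arrays at 8 h the canonical median was 0.08. In 13 of 17 canonical genes the difference was positive in each of the 3 experiments, as in 22.7% of all genes. Under the experiment block 10 of 29 histone genes rose, 7 canonical and 3 variant, where 3.23% of all genes rose and 9.52% were called. The 10 were H1f1 (0.29), H2ac21 (0.32), H2ac25 (0.27), Hist1h2an (0.14), H2bc12 (0.21), Hist3h2ba (0.27), Hist1h4b (0.18), Macroh2a1 (0.15), Macroh2a2 (0.22) and H3f4 (0.30). With the experiment as a random effect 3 passed. The canonical genes share copies, arrays and experiments, so their shared sign is not that of 17 separate observations.

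Markers of other cells moved with the p300 siRNA as well. In the averaged comparison 1.25% of all genes were called, and 9.52% with the block. Of 10 macrophage and leukocyte markers 3 fell in the averaged comparison (Csf1r, Ptprc and C1qb), 7 with the block, with a median of -0.29 and 10 of 10 negative. Their summed intensity was 7161 to 9301 in p300 siRNA cells and 8892 to 11500 in NS cells at 8 h, and 6247 to 9479 in p300 siRNA cells and 9115 to 11150 in NS cells at 0 h. Of 12 fibroblast markers 0 were called and 7 fell with the block (median -0.15), and the sums were 61840 to 69740 in p300 siRNA cells and 68760 to 72480 in NS cells at 8 h, and 60400 to 69110 in p300 siRNA cells and 67930 to 72510 in NS cells at 0 h. In the smooth muscle and pericyte list 1 of 7 fell (Cspg4). Under the block Pdgfrb also fell there (-0.23, adjusted p = 0.0131), and Tagln rose (0.15, adjusted p = 0.00632). Of the endothelial markers 0 of 7 were called, with 1 fall under the block. All 7 endothelial differences were negative, and their sums did not overlap: 1190 to 1242 in p300 siRNA cells and 1257 to 1413 in NS cells at 8 h, and 1476 to 1492 in p300 siRNA cells and 1596 to 1675 in NS cells at 0 h. The part of these cells in the histone values was not tested.

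**Figure D4:**
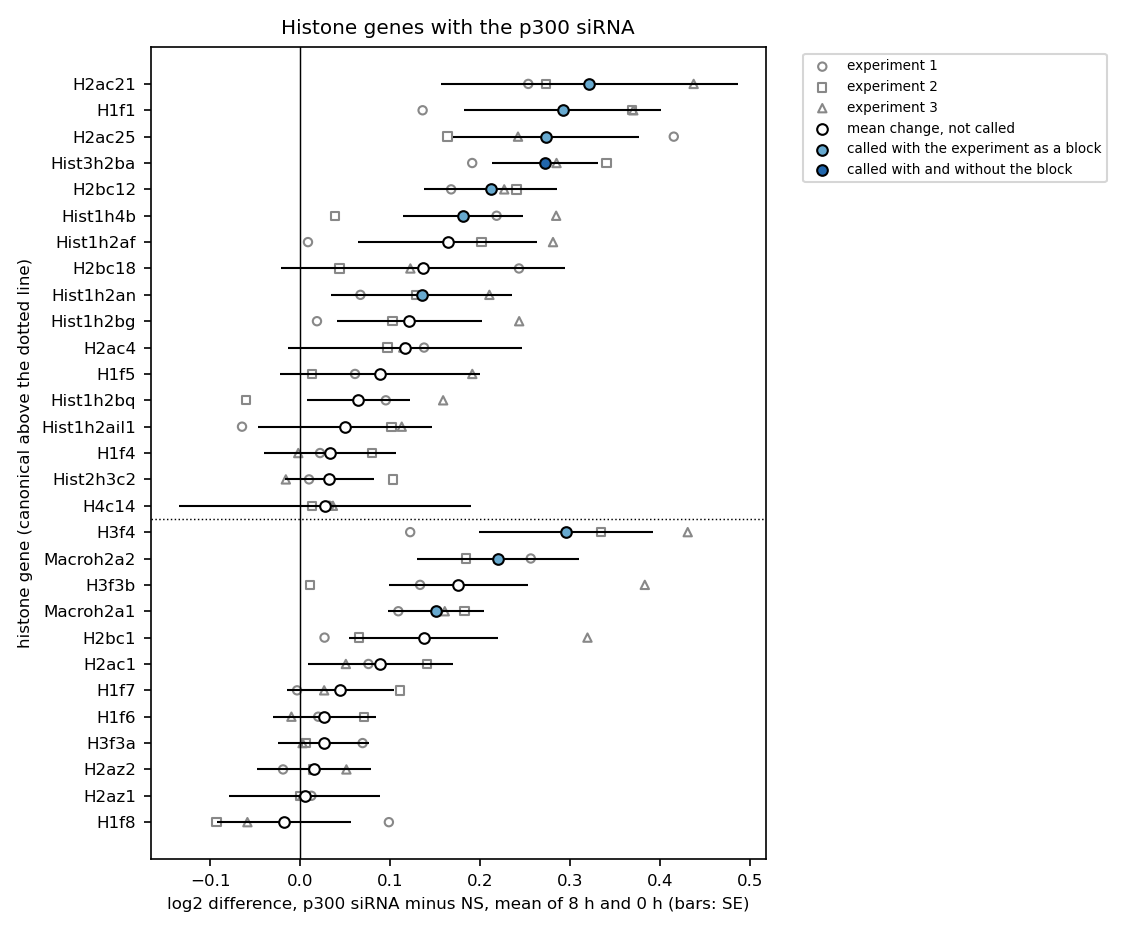
Log2 difference between p300 siRNA and NS cells, averaged over 8 h and 0 h, for each histone gene (filled or open circles with SE bars) and for each experiment (grey symbols). All 17 canonical genes lie right of 0, and Hist3h2ba is the gene called with and without the experiment as a block.

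The difference between the Dox responses of p300 siRNA and NS cells was called for 0 of 29 histone genes by limma, with 0 at an unadjusted p under 0.05 and 0 called, 2 at an unadjusted p under 0.05, with the block. Of all genes 0% were called. The median over the canonical genes was -0.06, and leaving out 1 array moved it between -0.13 and 0.02 and leaving out 1 experiment between -0.12 and 0.02, so its sign was not settled. The differences ran from -0.31 (H3f4) to 0.38 (H1f5). The median SE of such a difference was 0.162 over the 29 genes, which bounds what 3 arrays a group could show.

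Canonical genes also differed between experiments, and in a like manner. The deviation of a gene from its group means, averaged over the 4 arrays of an experiment, had a median over the 17 canonical genes of 0.17 in experiment 1, -0.17 in experiment 2 and 0.00 in experiment 3. Experiment 1 was the highest of the 3 for 16 of 17 canonical genes, against 33.0% of all genes and 5 of 12 variant genes. The widest spread was that of H4c14, with 0.38, -0.28 and -0.10. Hist1h4b was the canonical exception, with -0.09, 0.05 and 0.04. H2ac25, the other riser, was highest in experiment 1 (0.19) like the genes that fell. Among variants H2az1 (-0.19) and H3f3a (-0.09) were lowest in experiment 1. The S phase list described below had medians of -0.14, 0.08 and 0.07, with experiment 1 the lowest. Across the 12 arrays, after group means were taken off, H2ac25 correlated with the mean of the other canonical genes at r = 0.67, Hist1h4b at r = -0.60, H2az1 at r = -0.87 and H3f3a at r = -0.78. These are descriptions over arrays that share experiments.

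**Figure D5:**
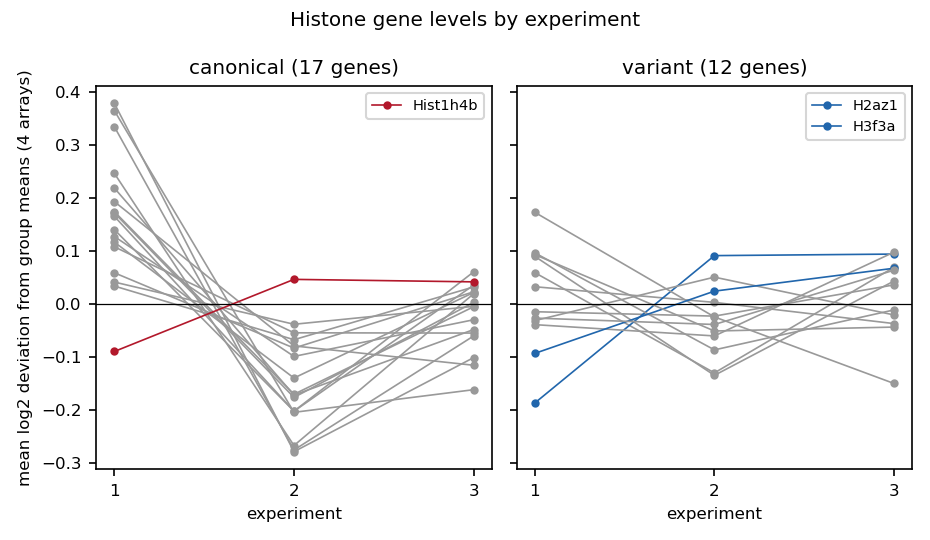
Mean log2 deviation of each histone gene from its group means in the 3 experiments (4 arrays each), with canonical genes on the left and variant genes on the right. Canonical genes are highest in experiment 1 apart from Hist1h4b (red, -0.09), and H2az1 and H3f3a (blue) lie lowest there at -0.19 and -0.09.

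Genes that make and remove histone mRNA were called mostly as falls. Of 20 measured genes for histone mRNA processing and decay 10 fell and 1 rose in p300 siRNA cells, with a median of -0.43, and 11 fell and 0 rose in NS cells, with a median of -0.30. Of all genes 17.5% fell and 13.9% rose in p300 siRNA cells, and 16.4% fell and 11.2% rose in NS cells. Lsm10 and Lsm11, subunits of the U7 particle that cuts histone mRNA, fell by 0.80 and 0.77 in p300 siRNA cells and by 0.59 and 0.55 in NS cells. Coil, the scaffold of the Cajal body, fell by 0.49 in p300 siRNA cells and 0.63 in NS cells, and Eri1, an exonuclease that trims the stem-loop, by 0.53 in p300 siRNA cells and 0.56 in NS cells. Casp8ap2, a partner of NPAT at histone loci, fell by 0.75 in p300 siRNA cells and differed by -0.55 in NS cells (adjusted p = 0.0909, and 3.39e-04 under the block). Slbp, which encodes the stem-loop binding protein, was not called (-0.00 in p300 siRNA cells and -0.19 in NS cells). Cstf3, a cleavage factor, rose by 0.47 in p300 siRNA cells.

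Regulators of histone gene transcription were called about as often as all genes. Of 19 measured 2 rose and 3 fell in p300 siRNA cells and 1 rose and 3 fell in NS cells, with medians of -0.08 in p300 siRNA cells and -0.09 in NS cells. These 5 and 4 calls of 19 lie close to the 31.4% of all genes called in p300 siRNA cells and 27.5% in NS cells. Under the block 11 were called in p300 siRNA cells and 9 in NS cells. The block called 45.8% of all genes in p300 siRNA cells and 43.6% in NS cells. NF-Y reads the CCAAT box shown above, and of its subunits Nfyb rose by 0.65 in p300 siRNA cells and 0.43 in NS cells, while Nfyc fell by 0.29 in p300 siRNA cells and 0.26 in NS cells. Tbp, the TATA-binding protein, fell by 0.62 in p300 siRNA cells and 0.52 in NS cells. Npat, the coactivator of histone loci, was not called (-0.29 in p300 siRNA cells and -0.25 in NS cells). E2f1, an activator of S phase genes, rose by 0.47 in p300 siRNA cells and differed by 0.31 in NS cells (adjusted p = 0.0643).

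Among 26 histone chaperones and exchange factors 5 rose and 8 fell in p300 siRNA cells, and 2 rose and 8 fell in NS cells. The 26 hold Setl1, which was matched through a synonym to the listed chaperone Set. Its group means were low, at 4.46 to 4.73 log2 intensity. Rises lay near the 13.9% of all genes in p300 siRNA cells and 11.2% in NS cells, where 17.5% of all genes fell in p300 siRNA cells and 16.4% in NS cells. Under the block 17 of the 26 were called in NS cells, where 43.6% of all genes were. Anp32e, which removes H2A.Z, rose by 0.46 in p300 siRNA cells and 0.41 in NS cells, while Vps72, which deposits it, fell by 0.88 in p300 siRNA cells and 0.71 in NS cells. Kat5, the acetyltransferase of the complex that exchanges H2A.Z, fell by 0.97 in p300 siRNA cells and 0.93 in NS cells. Nasp, a chaperone of soluble H3 and H4, rose by 0.47 in p300 siRNA cells and differed by 0.29 in NS cells (adjusted p = 0.0549). Hira, a chaperone that deposits the replacement form of H3, was not called (-0.10 in both).

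Genes of S phase did not move as 1 block. Of 29 measured 3 rose and 9 fell in p300 siRNA cells and 2 rose and 9 fell in NS cells, with a median of -0.08 in both. The share of all genes that rose was 13.9% in p300 siRNA cells and 11.2% in NS cells, and the share that fell 17.5% in p300 siRNA cells and 16.4% in NS cells. Under the block 17 of the 29 were called in NS cells, where 43.6% of all genes were. Mcm2, a helicase subunit, fell by 1.14 in p300 siRNA cells and 0.86 in NS cells, and Cdc6, which loads the helicase, by 0.80 in p300 siRNA cells and 1.04 in NS cells. Tyms, which makes thymidylate, rose by 0.77 in both. Pcna, the sliding clamp, rose by 0.75 in p300 siRNA cells and differed by 0.45 in NS cells (adjusted p = 0.161, and 2.11e-05 under the block). In the averaged p300 siRNA comparison 0 genes of these 4 lists were called by limma. Under the block Ccne2 (0.29), a cyclin in both the transcription and the S phase list, rose, as did the chaperone gene Daxx (0.17), and 1 S phase gene fell. The block called 9.52% of all genes in that comparison.

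Histones that the name rule left out included H2ax, whose phosphorylation marks DNA breaks, and Cenpa, the H3 of the centromere. H2ax stood at 10.08, 10.37 and 10.29 in p300 siRNA cells at 8 h, against 10.49, 10.57 and 10.76 at 0 h, and fell by 0.36 (SE 0.0971, adjusted p = 0.0134). This call was lost with median centring, without experiment 2, without experiment 3 and without experiment 3 of the p300 siRNA arrays at 0 h. In NS cells it stood at 10.13, 10.14 and 10.26 at 8 h, against 10.37, 10.43 and 10.34 at 0 h, a difference of -0.20 (adjusted p = 0.144, and 0.0379 under the block). The times did not overlap in either cell group, and the difference between the responses was not called (-0.15, adjusted p = 1.00). Cenpa fell by 0.59 in p300 siRNA cells and by 0.53 in NS cells (SE 0.109, adjusted p = 0.00125 in p300 siRNA cells and 0.00285 in NS cells), the call in NS cells being lost without experiment 2. Of 10 genes for H2AX phosphorylation and damage signalling 2 rose and 3 fell in p300 siRNA cells and 0 rose and 3 fell in NS cells. Among them Ppm1d, a phosphatase of H2AX, was at -0.64 in p300 siRNA cells and -0.61 in NS cells. The 3 calls in NS cells lie close to the 27.5% of all genes called there, and 31.4% of all genes were called in p300 siRNA cells. Under the block 5 of the 10 were called in NS cells, near the 43.6% of all genes.

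The genes most like the mean of the canonical histones over the 12 arrays, by Pearson correlation, were Pcgf2 (r = 0.989), Kdm4b (0.978), Baz2a (0.977), Ptpn23 (0.975) and Sh3gl1 (0.974). Their changes with Dox were smaller, from -0.51 to -0.32 in p300 siRNA cells and from -0.43 to -0.27 in NS cells.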

How the data were processed

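Total RNA of 12 samples was hybridised to Affymetrix whole-transcript arrays. The deposited values are linear intensity values, 1 per probe set, made with Affymetrix Expression Console 1.1 and RMA per the submitters' processing notes; the linear scale was read from the values (8.05 to 25315), log2 was taken here, and the genome build of the files is not given in the sources used here. Array medians lay between 7.73 and 7.80 log2, and precision is limited by how many arrays there are. RMA normalises between arrays, which removes any change common to all genes.

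Of 29214 probe sets, those with several symbols (323) or none (13581) were left out, and the brightest of each gene was kept (14507 genes). Symbols came from the platform annotation, updated through Entrez identifiers (14481 matched) with the GRCr8 RefSeq table; promoters are RefSeq's. Groups came from titles and treatment labels. The labels call the replicates biological and the design text gives 3 experiments; whether each was a separate cell preparation is not stated, so p-values measure the spread between these samples.

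One model held 4 group means (limma 3.58.1 under R 4.3.3, functions lmFit and eBayes with trend, 8 residual degrees of freedom, two-sided), with p-values adjusted by Benjamini-Hochberg over all genes. Log2 changes are 8 h minus 0 h, p300 siRNA minus NS, and, for the interaction, the p300 siRNA minus the NS response. Arrays of 1 replicate number in different groups deviated together (18 pairs, median r 0.504, lowest 0.172; other pairs -0.271), so the number names the experiment; the block values stand beside the results they change. The code was tested on simulated data.

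Alternatives were the experiment as a block or random effect, a fit of the compared groups alone, a filter on dim genes, median centring, quantile normalisation, other eBayes settings, the mean over probe sets, and each array or experiment left out. Named were Ep300, every histone gene, at most 4 called members per direction and list, 2 that were not called, and the 5 genes most like the canonical mean; Slbp, Npat, Hira, H2ax and Cenpa, and values of listed genes in the other cell group, were added by role. The members, classes and lists were chosen with earlier results of these data known. Plots came from matplotlib 3.10.9 under Python 3.11.15.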

Additional observations from a re-analysis of the deposited data

Results flagged for a closer look

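H2az2 differed in sign between the times when p300 siRNA cells were compared with NS cells: the difference was above 0 in 3 of 3 experiments at 8 h (0.04, 0.06 and 0.12) and below 0 in 3 of 3 at 0 h (-0.08, -0.03 and -0.02). The test of that difference gave 0.12 (SE 0.126, limma adjusted p = 1.00), so it was not called.

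Another 3 probe sets of H3f3a, which the comparisons did not use, were higher at 8 h in NS cells as well, with untested differences of group means of 0.27, 0.27 and 0.26, against 0.24 for the one that was used, and the 8 h and 0 h arrays did not overlap in any of them. In p300 siRNA cells they differed by 0.40, 0.39 and 0.36. Whether these probe sets read the same transcript was not tested.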

How the results depend on the processing

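No histone gene that was called changed sign under the 24 alternatives (23 for the averaged comparison), and 12 of 19 calls in p300 siRNA cells and 12 of 17 in NS cells were kept under all of them. The count called with Dox in p300 siRNA cells fell to 12 without experiment 3, in a fit with fewer arrays. Median centring moved the median of all genes with Dox to 0.14 in both cell groups and the share of rises among called genes to 68.5% in p300 siRNA cells (44.2% otherwise) and 67.4% in NS cells (40.5% otherwise), and quantile normalisation gave 50% in p300 siRNA cells and 48.0% in NS cells; small changes are thus relative to the scaling. The variant median with Dox was 0.24 in p300 siRNA cells and 0.28 in NS cells with median centring, and 0.25 in p300 siRNA cells and 0.23 in NS cells with dim genes left out. With dim genes left out the variant median with the p300 siRNA was 0.15 at 0 h and 0.12 averaged. That filter removed H1f6, H1f7, H1f8 and H2bc1 from the variant class, so its medians there cover fewer genes. The experiment as a block called 1 histone gene at 8 h, 1 at 0 h and 10 in the averaged p300 siRNA comparison, the random effect called 3 there, and median centring and quantile normalisation called 0. Leaving out 1 array or 1 experiment gave 12 to 21 histone calls in p300 siRNA cells with Dox and 0 to 1 in the averaged p300 siRNA comparison. It gave canonical medians of -0.74 to -0.49 with Dox in p300 siRNA cells, of -0.72 to -0.51 in NS cells of 0.039 to 0.21 with the p300 siRNA at 8 h, of 0.077 to 0.18 averaged and of -0.13 to 0.02 for the interaction. The variant medians with the p300 siRNA were 0.063 to 0.11 at 8 h, 0.021 to 0.12 at 0 h and 0.041 to 0.092 averaged, and that of the interaction -0.021 to 0.065. The averaged Ep300 difference was -1.02 to -0.88, not called without experiment 2 (-0.88) or without experiment 3 (-0.90).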

Other observations

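Other histone genes outside the name rule gave small values. Group means were low for H2ap (6.38 to 6.74 log2 intensity) and H2bu1 (6.18 to 6.58), where the median level of all genes was 8.57. H2ap differed by 0.35 in p300 siRNA cells with Dox (adjusted p = 0.0161) and by 0.21 in NS cells (adjusted p = 0.136), and the call in p300 siRNA cells was lost without experiment 3 and without any of 3 single p300 siRNA arrays (experiment 1 or 3 at 0 h, experiment 2 at 8 h). H2bu1 was not called (-0.25 in p300 siRNA cells and -0.26 in NS cells) and passed under the experiment block (adjusted p = 0.0351 in p300 siRNA cells and 0.0326 in NS cells), and H2aj and H2ab3 were not called in either cell group. Genes closest to H2ax over the 12 arrays were Fbxo16 (r = 0.967), Zfp428 (0.964), Selenoo (0.958), Pcnx3 (0.958) and Aph1a (0.951).

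The additional probe sets of Hist1h2an and Hist1h2ail1, dimmer than those used, had smaller untested differences of group means: -0.37 and -0.44 in p300 siRNA cells and -0.26 and -0.35 in NS cells. The additional probe set of H2az1 was at 0.43 in p300 siRNA cells and 0.29 in NS cells. Of the neighbours H2ac25, Hist3h2ba and H3f4, H2ac25 rose and H3f4 fell in p300 siRNA cells. The neighbours H4c14, Hist2h3c2, H2bc18 and H2ac21 all had negative changes.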
